A study of Mus musculus with 42 samples.

Results

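The cornified envelope genes examined here are 10 genes whose products build or cross-link the envelope of squamous epithelium: Sprr1a, Sprr1b, Sprr2i, Sprr3, Lor, Ivl, Flg, Rptn, Tgm1 and Tgm3. Their probes were found by gene symbol, among 20018 named genes on the array, and the list was drawn up with earlier results of these data known. Probes were found for 9 of the 10. Flg matched no named probe and is not analysed here. All 9 passed the filter on dim probes in forestomach, against 4 in lung and 5 in liver.

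The arrays came from adult male Muta™Mouse of about 11 weeks of age, a transgenic strain carrying a reporter for mutation assays. Benzo(k)fluoranthene (BkF), an aromatic hydrocarbon with several fused rings, was given in olive oil by gavage every day for 28 days, and the tissues were removed 72 hours after the last dose. The vehicle group (D0, 0 mg/kg-bw/day) received olive oil alone, and the treated groups received 25 (D1), 50 (D2) or 100 (D3) mg/kg-bw/day. Forestomach was measured in 4, 3, 4 and 3 mice at D0, D1, D2 and D3, lung in 4, 3, 4 and 4, and liver in 4, 2, 3 and 4, with each array holding 1 tissue of 1 mouse. RNA was taken from random sections of the whole tissue, so fewer cells of a type and less RNA per cell cannot be told apart. Every array compared the tissue (Cy5) with a universal reference RNA pooled from 11 mouse cell lines (Cy3), and values are log2 ratios of tissue over reference, normalised by loess within each array.

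Mouse forestomach is lined by a stratified, keratinised squamous epithelium. As its cells leave the basal layer they make soluble precursor proteins, among them involucrin (Ivl), loricrin (Lor), repetin (Rptn) and the small proline-rich proteins (Sprr genes), which transglutaminases such as Tgm1 and Tgm3 join by covalent bonds under the plasma membrane. The result is the cornified envelope, a rigid protein shell that replaces the membrane of the dead surface cell. Lung and liver have no such lining, and the same genes served there as a contrast.

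In RefSeq, 8 of the 10 genes lie on chromosome 3 in the order Lor, Sprr2i, Sprr1b, Sprr3, Sprr1a, Ivl, Flg and Rptn, with no other gene between Sprr1b, Sprr3 and Sprr1a. Tgm1 lies on chromosome 14 and Tgm3 on chromosome 2. The promoters of Sprr2i and Rptn, the genes whose log2 ratios ranged most widely over the forestomach arrays, and of Sprr1a are shown because they carry the motifs that most of the group share. Each window runs from 250 bases before to 50 bases after the annotated start (RefSeq, GRCm38.p6), 5′ to 3′ on the gene's strand, and capitals mark matches to the AP-1 motif TGANTCA, the TATA motif TATAAA or GCGTG, the core letters of the xenobiotic response element.
Sprr2i, chr3:92407741-92408040, plus strand: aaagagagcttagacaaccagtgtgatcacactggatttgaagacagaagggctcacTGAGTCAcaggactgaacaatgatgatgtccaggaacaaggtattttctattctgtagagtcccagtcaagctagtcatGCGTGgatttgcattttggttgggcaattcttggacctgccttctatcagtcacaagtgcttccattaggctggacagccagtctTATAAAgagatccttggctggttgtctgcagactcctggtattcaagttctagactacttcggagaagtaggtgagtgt
Rptn, chr3:93393449-93393748, plus strand: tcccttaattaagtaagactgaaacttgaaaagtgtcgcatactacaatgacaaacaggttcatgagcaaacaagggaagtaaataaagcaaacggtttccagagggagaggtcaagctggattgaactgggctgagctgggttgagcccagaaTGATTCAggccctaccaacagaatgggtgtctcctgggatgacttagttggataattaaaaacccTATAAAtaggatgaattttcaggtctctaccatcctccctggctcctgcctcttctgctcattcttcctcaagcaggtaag
Sprr1a, chr3:92485832-92486131, minus strand: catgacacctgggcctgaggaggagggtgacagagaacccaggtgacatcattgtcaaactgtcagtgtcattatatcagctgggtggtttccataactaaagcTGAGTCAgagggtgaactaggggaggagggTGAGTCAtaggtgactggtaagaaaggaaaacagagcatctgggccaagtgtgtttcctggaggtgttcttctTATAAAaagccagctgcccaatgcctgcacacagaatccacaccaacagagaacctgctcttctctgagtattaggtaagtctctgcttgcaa
Sprr1a holds 2 AP-1 matches, and Sprr2i and Rptn hold 1 each. Over all 10 genes, with 2 windows for Tgm1, 7 had an AP-1 match, against 7.81% of 32851 mouse promoter windows searched in the same way, with both strands read by the same letters. TATAAA on the gene's strand was present in 9 of the 10, all but Tgm1, against 8.32% of all windows. GCGTG on either strand was present in 2, Sprr2i and Tgm1, against 32.4% of all windows. The motifs did not overlap in these windows, and a match describes the letters only.

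In vehicle mice, Sprr1a, Lor and Tgm1, which passed the filter on dim probes in all tissues, were higher in forestomach than in lung and than in liver (limma with Benjamini-Hochberg adjustment, at least 1.5-fold). Sprr1b, Sprr2i, Sprr3, Rptn and Ivl were called higher in both comparisons too, but the first 4 passed the filter in forestomach alone and Ivl did not pass it in lung, so they entered the test through the tissue where they are high and their calls are no support for the group. Of all probes tested, 13.6% were called higher in forestomach against lung and 18.1% against liver. Sprr1a had a mean log2 ratio of 4.25 ± 0.45 (SD, n = 4) in vehicle forestomach, and its means in vehicle lung and liver were -2.20 and -2.53. That is a log2 difference of 6.44 ± 0.28 (SE) from lung, with an adjusted p of 2.5e-19 in the limma fit of all 42 arrays. Lor, the main structural protein of the mature envelope in many squamous tissues, had a log2 ratio of 6.99 ± 0.15 (SD, n = 4) in vehicle forestomach against means of 1.33 in lung and 1.00 in liver. For both genes the means of the vehicle lungs and livers lay far below every forestomach array.

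Sprr1b, Sprr2i, Sprr3, Rptn and Ivl (the brighter probe in forestomach) were not well above background on any vehicle lung or liver array, so only bounds can be given there. The sample channel was taken after normalisation within and between arrays. On that scale Sprr3 was at least 355-fold brighter in vehicle forestomach than in lung, Rptn at least 75.6-fold, Sprr2i at least 37.9-fold, Sprr1b at least 3.74-fold and Ivl at least 1.86-fold. Raw signals differed less, so the bounds hold on the normalised scale only. Raw vehicle medians in forestomach and lung were 8656.25 and 68.5 for Sprr3, 1992.75 and 71.5 for Rptn, and 1207.25 and 67 for Sprr2i. These bounds set the mean forestomach signal against, for each dim array, the higher of its lowest detected signal and the signal of the probe itself. Tgm1, the membrane-bound transglutaminase of keratinocytes, was above background in all tissues and had a log2 ratio of 5.23 ± 0.46 (SD, n = 4) in vehicle forestomach, 0.61 in lung and 1.26 in liver.

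Tgm3, a transglutaminase that acts late in differentiation, was read by 2 probes that disagreed. The probe A_51_P495560 had a log2 ratio of 3.42 in vehicle forestomach against 0.14 in lung (log2 difference 3.28 ± 0.40, adjusted p = 3.0e-08 by limma). It was well above background on 2 of the 4 vehicle lungs and on 0 of the 4 vehicle livers, so the size of the lung difference rests in part on values at background. The probe A_55_P2163493 had log2 ratios of 0.35 in forestomach, 0.74 in lung and 0.99 in liver, which is lower in forestomach by limma (adjusted p = 0.020 against lung and 0.00023 against liver), and only the difference from liver reached 1.5-fold. That difference was -0.63 and fell under 1.5-fold without liver D0 mouse 1 (-0.54) or forestomach D0 mouse 2 (-0.58). The second probe is brighter over the average of both channels and so stands for Tgm3 in counts over genes, while the first is brighter in the sample channel. Both are therefore given below, and Tgm3 values are uncertain.

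The reference RNA was the same on every array, yet its channel was not constant for these genes. For Lor the raw reference signal had a median of 3170 on forestomach arrays, against 46.0 on lung arrays leaving out the D2 lung of mouse 12, a 68.9-fold ratio, although lung and forestomach shared 4 slides. For Sprr3 the ratio was 11.7. The other envelope probes had ratios between 0.885 and 2.31, and over 33498 probes the median ratio was 0.925, with 144 probes (0.430%) above 3-fold. The log2 ratios of Lor and Sprr3 in forestomach therefore understate the difference in the sample channel, and the forestomach results were repeated on the sample channel alone. Why the reference channel differed was not tested.

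**Figure D1:**
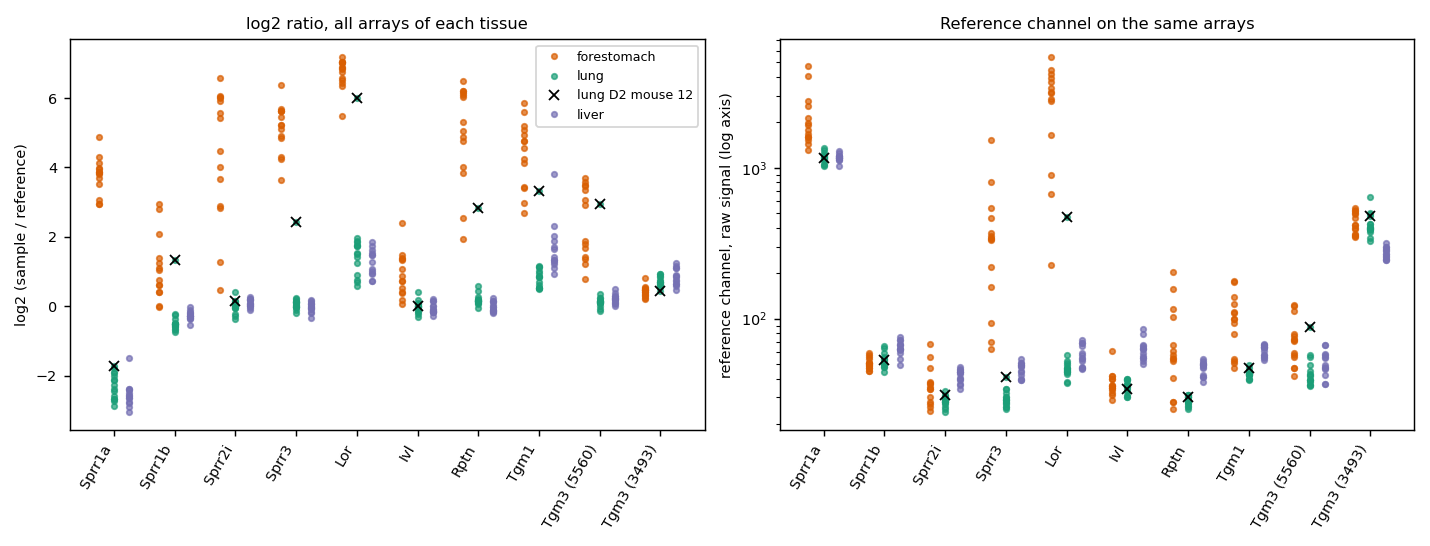
Left, log2 ratio of sample over reference for each array (points) by gene and tissue; right, raw reference-channel signal of the same arrays on a log axis. Tgm3 is shown for both probes by the last 4 digits of their names, and crosses mark the D2 lung of mouse 12. The reference signal of Lor lay between 228.5 and 5422.5 on forestomach arrays and between 37.5 and 57.0 on the other 14 lung arrays.

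The forestomach arrays also differed in how much glandular stomach they held. Gkn1, a secreted protein of gastric pit cells, and Atp4a, the proton pump of parietal cells, were high on 9 arrays and low on 5. Gkn1 had log2 ratios of 0.47, 5.35, 4.74 and 0.14 in D0 mice 1, 2, 3 and 4, of 5.81, 5.19 and 4.82 in D1 mice 7, 8 and 9, of 0.79, 5.18, 2.94 and 5.62 in D2 mice 11, 12, 13 and 15, and of 0.64, 5.27 and 0.30 in D3 mice 16, 17 and 20. Atp4a had log2 ratios of 0.01, 6.39, 6.09 and -0.24 in the D0 mice, 5.74, 5.72 and 5.36 in the D1 mice, -0.01, 5.73, 3.85 and 6.28 in the D2 mice, and 0.17, 5.32 and -0.28 in the D3 mice. Atp4a was not well above background on any of the 5 low arrays. A score over 12 glandular genes ran from -5.0 to -4.0 on the low arrays and from -0.45 to 0.66 on the high arrays. All 3 D1 arrays were high, with 2 of 4 at D0, 3 of 4 at D2 and 1 of 3 at D3. A score over 12 squamous keratins ran from -0.79 to 0.46 at D0, from -0.44 to -0.04 at D1, from -0.60 to 0.06 at D2 and from -0.74 to 0.02 at D3. The squamous keratin Krt4, which had the largest D1 difference of the 12, had a mean log2 ratio of 6.31 in vehicle forestomach and 3.25 at D1. By contrast, 5 of the 12 keratins had higher means at D1, and the median difference over the 12 was -0.15.

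Against vehicle, the envelope genes had lower mean log2 ratios in forestomach at D1 and D2 and differed less at D3, but none passed the test at any dose. Of 9 genes, 8 had a lower mean at D1, 8 at D2 and 6 at D3. The median log2 difference over the 9 was -0.93 at D1, -1.10 at D2 and -0.32 at D3, or -1.30, -1.48 and -0.34 with the probe that is brightest in the sample channel, a choice that for Tgm3 takes the other probe and was made after the disagreement was seen. With the scanner software's log ratios the D2 median was -0.34. The medians over all 25305 probes were -0.02, 0.02 and 0.00. The fit called 0% of all probes at each dose and 0% in the dose trend, and 0 of 9 envelope genes. At an unadjusted p under 0.05, 6 of 9 were lower at D1, 6 at D2 and 0 at D3, where 7.87%, 4.9% and 0.83% of all probes were. None of the 9 was higher at that level.

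Sprr2i, a precursor of the Sprr2 subfamily, had log2 ratios of 6.07, 6.58, 6.02 and 5.44 in the D0 mice, 2.84, 1.29 and 4.01 in the D1 mice, 5.57, 0.49, 3.67 and 2.89 in the D2 mice, and 6.0, 4.48 and 5.91 in the D3 mice. Every D1 array lay below every vehicle array, while D2 mouse 11 and the D3 mice 16 and 20 reached the vehicle range. The log2 difference was -3.31 ± 0.94 (SE) at D1, -2.87 ± 0.87 at D2 and -0.56 ± 0.94 at D3, with limma adjusted p of 0.26, 0.51 and 1.00. D2 mouse 12 was not above background for this probe. Without D3 mouse 17 the D3 difference of Sprr2i was -0.065, and the D3 median over the 9 genes was also -0.065. When D0 and D1 were fitted without the other groups, Sprr2i was called lower (adjusted p = 0.036 by limma), as were 1.17% of all probes.

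Sprr1b had log2 ratios of 1.1, 2.95, 2.80 and 1.40 at D0, 0.62, 0.41 and 1.26 at D1, 1.06, 0.01, -0.00 and 0.40 at D2, and 2.09, 0.61 and 0.75 at D3. All 4 D2 arrays lay below all vehicle arrays, and the log2 difference at D2 was -1.70 ± 0.46 (SE, adjusted p = 0.48 by limma). Sprr1b was well above background on 2 of the 4 D2 arrays, so the size of that difference rests in part on values at background. Its vehicle values split by mouse, with the higher pair in the mice that also had high Gkn1. Those mice were also the only vehicle mice with forestomach on slide 2, so glandular content and slide cannot be told apart there. Sprr1a and Sprr3, which flank each other on chromosome 3, were less variable in log2 ratio. The raw reference signal of Sprr3 also differed between dose groups, with medians of 505.5, 162.5, 201 and 354 from D0 to D3. Its raw sample signal had medians of 8656.25, 1097, 1106.75 and 5064. The part of the reference channel in the dose differences of Sprr3 was not tested. Sprr1a had means of 4.25 ± 0.45, 3.51 ± 0.45, 3.47 ± 0.60 and 3.79 ± 0.09 (SD; n = 4, 3, 4 and 3) from D0 to D3. Sprr3 had means of 5.71 ± 0.48, 4.79 ± 0.48, 4.62 ± 0.88 and 5.40 ± 0.26 over the same groups. Both overlapped between each dose and vehicle.

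Rptn, a filaggrin-like precursor of the envelope, had log2 ratios of 6.04, 4.87, 6.48 and 6.15 in the D0 mice, 4.01, 2.53 and 4.75 in the D1 mice, 6.10, 1.93, 5.06 and 3.84 in the D2 mice, and 6.20, 5.31 and 6.21 in the D3 mice. All D1 values were below all vehicle values, and all D3 values lay within the vehicle range. The log2 difference was -2.12 ± 0.81 (SE) at D1, -1.66 ± 0.75 at D2 and 0.02 ± 0.81 at D3, and the lowest of the 3 adjusted p was 0.35 by limma. Without D2 mouse 12 the D2 difference was -0.89. With the log ratios of the scanner software the D1 and D2 differences of Rptn turned to 0.30 and 0.36, so the direction for this gene depends on how the ratio is made.

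Lor, with dose differences between -0.42 and -0.34, had means of 6.99 ± 0.15, 6.57 ± 0.17, 6.60 ± 0.75 and 6.65 ± 0.35 (SD; n = 4, 3, 4 and 3) from D0 to D3. Its raw reference signal differed between dose groups too, with medians of 3551, 1663, 2200 and 3385. Its raw sample signal had medians of 111285, 28414, 37527.5 and 82990, so small differences in ratio do not show a steady sample signal. Its D1 arrays lay below all vehicle arrays by a small margin, and the D2 spread rested on mouse 12, at 5.48 against 6.86 to 7.04 in the other 3. Without that array the D2 difference of Lor went from -0.39 to -0.016. Ivl, an early scaffold of the envelope, was close to background. Its brighter probe had means of 1.07 ± 0.33, 0.27 ± 0.24, 0.92 ± 0.60 and 1.41 ± 0.88 from D0 to D3, and none of the D1 arrays was well above background. The other Ivl probe gave 0.55, 0.20, 0.48 and 0.74, in the same order.

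Among the cross-linking enzymes, Tgm1 had log2 ratios of 5.07, 5.86, 5.19 and 4.77 at D0, 2.97, 3.44 and 4.55 at D1, 4.77, 2.68, 3.41 and 4.12 at D2, and 5.60, 4.24 and 4.94 at D3. The D1 arrays were all below vehicle, with a log2 difference of -1.57 ± 0.50 (SE, adjusted p = 0.29 by limma). The Tgm3 probe A_51_P495560 had log2 ratios of 3.69, 3.46, 3.50 and 3.05 at D0, 1.37, 1.22 and 1.42 at D1, 2.91, 0.80, 1.81 and 1.68 at D2, and 3.57, 1.89 and 3.34 at D3. It separated D1 and D2 from vehicle completely, with log2 differences of -2.09 ± 0.44 and -1.63 ± 0.41 and limma adjusted p of 0.26 and 0.48. The Tgm3 probe A_55_P2163493 stayed between 0.20 and 0.83 on all 14 arrays, with a D1 difference of 0.10 ± 0.14.

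**Figure D2:**
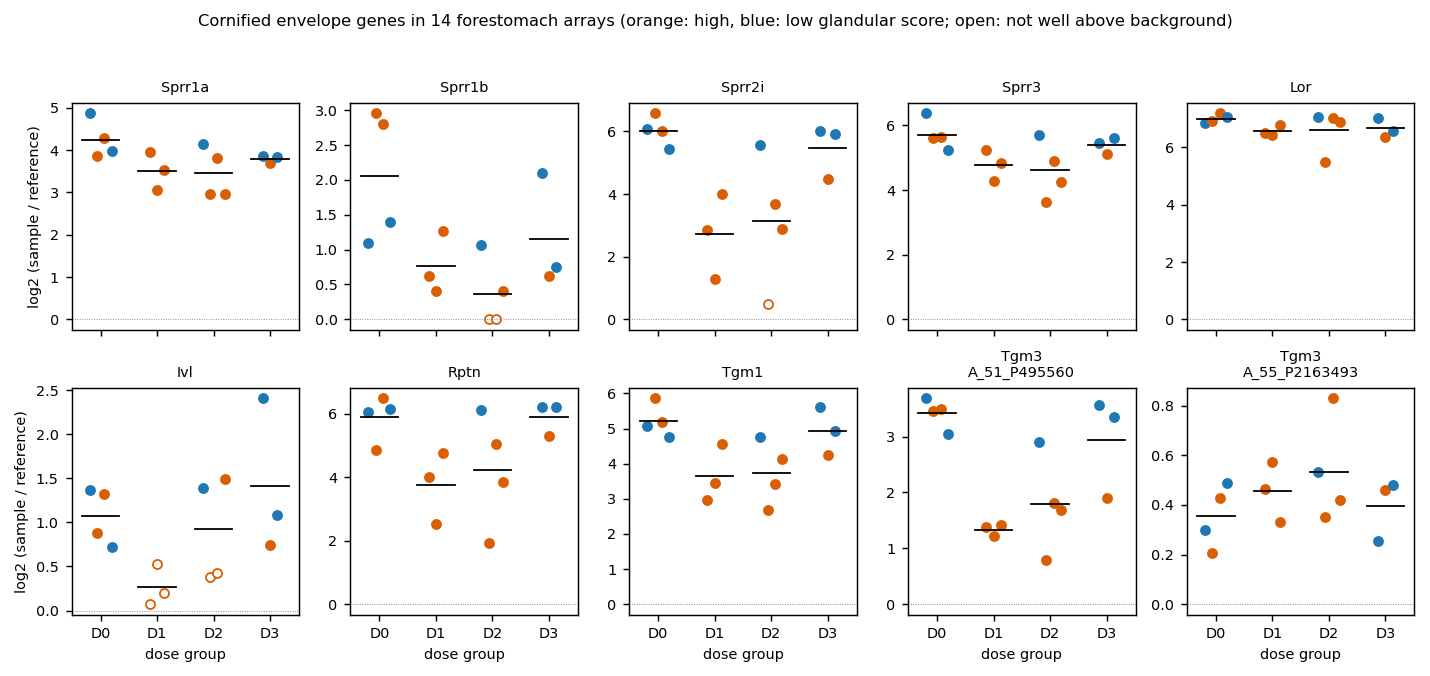
Log2 ratio of sample over reference (vertical axes, separate scales) for each forestomach array by dose group; lines are group means, orange points are arrays with a high glandular score, blue points those with a low score, and open points were not well above background. For Sprr2i the D1 arrays lie between 1.29 and 4.01 and the vehicle arrays between 5.44 and 6.58.

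Across the 9 genes, all D1 arrays lay below all vehicle arrays for 5 (Sprr2i, Lor, Ivl, Rptn and Tgm1), which held for 9.22% of all probes. All D2 arrays lay below vehicle for 1 (Sprr1b), against 2.16% of all probes, and all D3 arrays for 0, against 1.11%. On the sample channel alone the median difference was -1.48 at D1, -1.81 at D2 and -0.49 at D3, with 0 genes called.

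**Figure D3:**
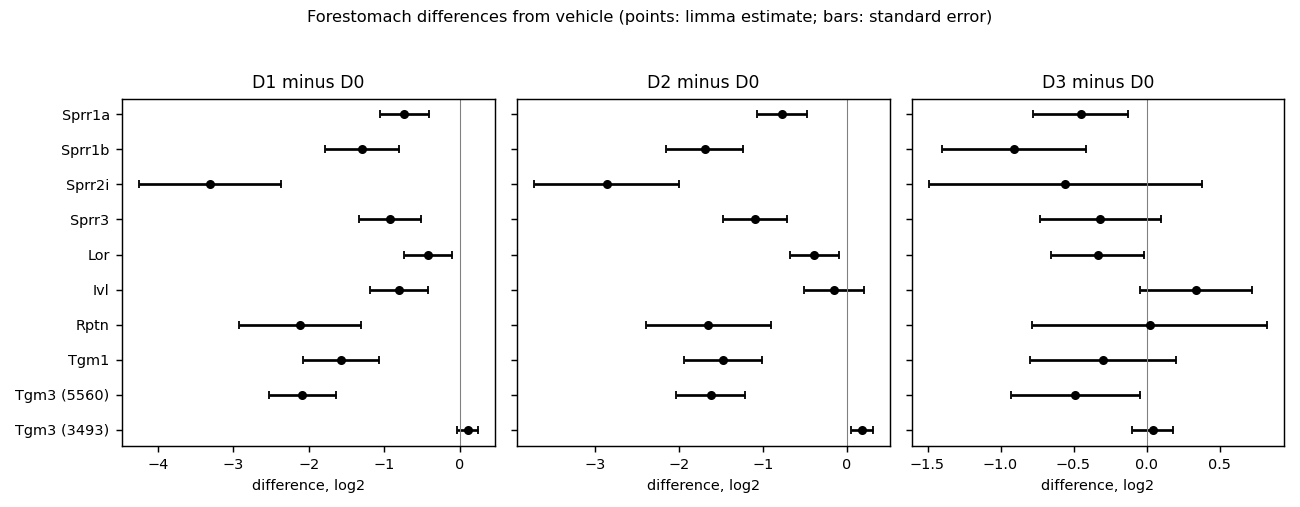
Differences in log2 ratio between each dose and vehicle in forestomach (points, limma estimate; bars, standard error), with both Tgm3 probes by the last 4 digits of their names. Sprr2i has the lowest estimate at D1 (-3.31) and D2 (-2.87), and at D3 the estimates lie between -0.91 and 0.34.

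The lower values were found on arrays with a high glandular score. The mean log2 ratio over the 9 genes was 4.22 and 3.91 in D0 mice 1 and 4, whose score was low, and 4.19 and 4.37 in D0 mice 2 and 3, whose score was high. Among vehicle mice, 0 of 9 genes were lower on both high-score arrays than on both low-score arrays, where 18.5% of all probes were, and 2 (Sprr1b and Tgm1) were higher on both, where 24.8% of all probes were. Both high-score vehicle arrays were on slide 2, and the low-score ones were on slides 3 and 4. Glandular score and slide therefore cannot be told apart among vehicle mice. On high-score arrays of treated mice the mean over the genes was 2.96, 2.51 and 3.36 at D1 (mice 7, 8 and 9), 1.99, 3.23 and 3.03 at D2 (mice 12, 13 and 15) and 3.45 at D3 (mouse 17). On low-score arrays of treated mice it was 4.03 at D2 (mouse 11) and 4.32 and 3.93 at D3 (mice 16 and 20). High-score arrays of treated mice were thus all below the high-score vehicle arrays, and low-score arrays of treated mice lay in the vehicle range.

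Within the high-score arrays, 7 of 9 genes had all 3 D1 arrays below both vehicle arrays, against 20.4% of all probes, and 5 of 9 had all 3 D2 arrays below them, against 13.8%. Within the low-score arrays, 0 of 9 genes had the 3 D2 and D3 arrays below both vehicle arrays, against 8.54% of all probes. Both high-score vehicle arrays were on slide 2 and no D1 array was, so among high-score arrays the D1 difference and slide cannot be told apart. No D1 array had a low score, so D1 cannot be compared on such arrays. With the glandular score as a covariate the median difference of the 9 genes was -0.60 at D1, -0.90 at D2 and -0.37 at D3, with 0 called. In a fit of the 9 high-score arrays alone, Sprr1b was called lower at D1 (log2 difference -2.11 ± 0.27 (SE), limma adjusted p = 0.042), as 1 of 31 probes called. Over all 14 arrays the call was absent with or without slide, and slide was not fitted within the high-score arrays. Over those 14 arrays Sprr1b at D1 was -1.30 ± 0.49 without covariates (limma adjusted p = 0.35) and -1.44 ± 0.54 with the glandular score (adjusted p = 0.75). It was -0.69 ± 0.40 with slide as a block (adjusted p = 0.61) and -0.63 ± 0.49 with slide and glandular score together (adjusted p = 1.00). In the latter fit the D1 differences were -2.60 ± 0.81 for Sprr2i, -1.70 ± 0.71 for Rptn, -0.89 ± 0.30 for Sprr3, -0.85 ± 0.25 for Sprr1a, -0.64 ± 0.52 for Tgm1, -0.0030 ± 0.33 for Lor, -0.0065 ± 0.20 for Tgm3 and 0.21 ± 0.22 for Ivl. At D2 they were -2.30 ± 0.62 for Sprr2i, -1.34 ± 0.38 for Sprr1b, -1.26 ± 0.54 for Rptn, -0.99 ± 0.23 for Sprr3, -0.96 ± 0.40 for Tgm1, -0.77 ± 0.19 for Sprr1a, -0.13 ± 0.25 for Lor, 0.13 ± 0.15 for Tgm3 and 0.36 ± 0.17 for Ivl, and 0 genes were called at either dose. The part of glandular content in these differences was not tested beyond these fits.

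**Figure D4:**
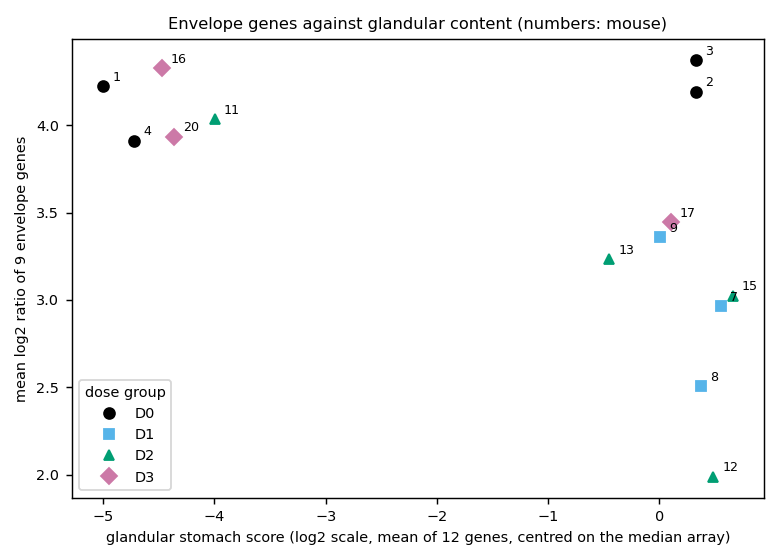
Mean log2 ratio of the 9 envelope genes (vertical axis) against the glandular stomach score (horizontal axis, log2 scale) for 14 forestomach arrays, with mouse numbers and symbols by dose group. The 5 arrays at the left lie between 3.91 and 4.32, and the 7 treated arrays at the right lie between 1.99 and 3.45, below both vehicle arrays there.

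Slide, the physical carrier of several arrays, also moved with these values. The 3 forestomach arrays on slide 1 (D1 mouse 8, D2 mouse 12 and D3 mouse 17) had the lowest mean over the genes in their dose groups, and that slide held no vehicle forestomach. With slide as a block the median difference was -0.77 at D1, -0.96 at D2 and 0.06 at D3. Within slide 3, the only slide with all 4 doses, 9 of 9 genes were lower at D1 than in the vehicle mouse and 8 of 9 at D2, with medians of -0.39 and -0.33, where 53% and 50.7% of all probes were lower, and the D3 median was 0.05. Each of these sets 1 array against 1, and the vehicle mouse there (mouse 4) had a low glandular score while the D1 and D2 mice (9 and 13) had high ones. Within slide 4, where the vehicle mouse had a low and the D1 mouse a high score, the medians were -1.14 at D1 and -0.04 at D2, the latter from mouse 11 with its low glandular score. Within slide 2 they were -1.39 at D2, with 7 of 9 genes lower, where 44.8% of all probes were, and -0.06 at D3. The D2 array of slide 2 (mouse 15) and both its vehicle arrays had high scores, while its D3 array (mouse 16) had a low one. Without the arrays of slide 1 the medians were -0.94 at D1, -0.77 at D2 and -0.06 at D3, so the D1 value did not rest on that slide.

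Most other genes of the same programme also had lower means at D1 and D2, and none passed the test. Of 33 other envelope precursors tested, 28 had lower means at D1, 29 at D2 and 25 at D3, and Lelp1, a late cornified envelope-like gene, had log2 differences of -1.69 ± 0.47 (SE), -1.70 ± 0.44 and -0.84 ± 0.47. All 7 genes for plakins and junction proteins had lower means at D1 and D2, and Perp, a desmosomal protein, differed by -1.49 ± 0.38 at D1 and -1.04 ± 0.35 at D2. The 7 genes for lipids of the envelope had lower means at each dose, with 4, 5 and 0 at an unadjusted p under 0.05, and Abca12, the lipid transporter of lamellar granules, differed by -3.18 ± 0.75 at D1, -2.83 ± 0.70 at D2 and -0.77 ± 0.75 at D3. All 11 proteases and inhibitors had lower means at each dose, with medians of -1.50, -1.40 and -0.38, and the kallikrein Klk6 differed by -1.94 ± 0.57 and -1.97 ± 0.52 at D1 and D2. Among 8 regulators of differentiation, 6 had lower means at D1 and 7 at D2, and Ovol1, a transcription factor of squamous differentiation, differed by -1.91 ± 0.57 at D1.

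Of 12 squamous keratins, 7 had lower means at D1, 5 at D2 and 12 at D3, with list medians of -0.15, 0.09 and -0.34. Krt4, a keratin of the upper layers of internal squamous epithelia, differed by -3.06 ± 0.86 (SE) at D1, -2.91 ± 0.79 at D2 and -0.70 ± 0.86 at D3. Of the 7 smooth muscle genes, 7, 3 and 7 had lower means at D1, D2 and D3, with 0 at an unadjusted p under 0.05, and D2 mouse 12, the array with the lowest envelope values, also had the lowest smooth muscle score (-1.79, against -1.01 to 0.86 on the other 13). The 12 glandular genes had higher means in 12, 12 and 2 cases at D1, D2 and D3, with medians of 2.57, 1.43 and -0.66. Among markers of other tissues, named by the widest D3 difference in each list, Scgb1a1, a secretory protein of airway club cells, also had lower means, with log2 differences of -2.02 ± 0.40 (SE) at D1, -0.83 ± 0.37 at D2 and -0.39 ± 0.40 at D3 (limma adjusted p of 0.26, 0.65 and 1.00). Only 2 of the 6 lung epithelial genes passed the filter in forestomach, both with lower means at each dose and with list medians of -1.35, -0.58 and -0.25, and their part in the envelope differences was not tested. No gene of the other marker lists passed the test. Of 4 pancreatic genes 3, 3 and 2 had higher means at D1, D2 and D3 (medians 0.11, 0.25 and -0.02), and Cel, a pancreatic lipase, differed by -0.40 ± 0.35, -0.74 ± 0.32 and -0.60 ± 0.35, the only lower one at D1 and D2. Of 5 skeletal muscle genes 1, 4 and 1 had higher means (medians -0.59, 0.28 and -0.07), and Acta1, skeletal muscle actin, differed by -1.0 ± 0.65, -0.22 ± 0.60 and -0.81 ± 0.65, the only lower one at D2. Actg2, smooth muscle actin, differed by -0.14 ± 0.56, 0.03 ± 0.52 and -0.77 ± 0.56. Of 3 immune genes 2, 2 and 1 had higher means (medians 0.33, 0.02 and -0.13), and Lyz2, a macrophage lysozyme, differed by -0.04 ± 0.19, 0.34 ± 0.18 and 0.41 ± 0.19, the only lower one at D1 and the only higher one at D3. Of 6 hepatocyte genes 2, 3 and 1 had higher means (medians -0.12, -0.08 and -0.64), and Apoa1, an apolipoprotein, differed by 1.79 ± 1.63, 0.14 ± 1.51 and -1.09 ± 1.63. Chia1, a glandular chitinase, differed by 2.73 ± 2.56, 1.57 ± 2.37 and -1.67 ± 2.56. Cyp1a1, a target of the aryl hydrocarbon receptor through which BkF acts, had higher means, with log2 differences of 0.58 ± 0.85, 2.24 ± 0.79 and 3.24 ± 0.85 from D1 to D3. The D1 value rested on mouse 8 (1.93), while mice 7 and 9 (0.12 and 0.13) lay within the vehicle range of -0.39 to 0.60. Cyp1b1, another such target, differed by 0.03 ± 0.39, 1.08 ± 0.37 and 1.25 ± 0.39. Neither passed the test over all probes, and the envelope genes did not follow their order over dose.

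The envelope genes varied together from mouse to mouse. The Pearson correlation of each gene with the mean of the other 8 over 14 arrays was 0.97 for Sprr2i, 0.90 for Rptn, 0.89 for Tgm1, 0.87 for Sprr3, 0.76 for Sprr1a, 0.75 for Lor, 0.69 for Sprr1b, 0.56 for Ivl and -0.32 for Tgm3 on its probe A_55_P2163493. Among 13349 other named genes, the 5 with the pattern most like the mean of the 9 were Krt4 (r = 0.98), Nmu (0.98), Klk8 (0.98), Il1f5 (0.97) and Slc10a6 (0.97). Log2 ratios were not scaled before averaging, so genes that range widely weigh most in this mean and in those by glandular score. The SD over 14 arrays was 1.92 for Sprr2i and 1.43 for Rptn, against 0.44 for Lor and 0.15 for Tgm3. The same 5 led, with r from 0.96 to 0.97, when the arrays with high and with low glandular score were each centred on their own mean. These are likenesses over arrays that share dose group, slide and tissue composition, and no test was made on them.

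In lung and liver the envelope genes showed no called change. In lung 0 of 4 genes tested (Sprr1a, Lor, Tgm1 and Tgm3) were called at any dose or in the trend, where 0%, 0.0153% and 0.0336% of all probes were called at D1, D2 and D3 and 0.0367% in the trend. Sprr1a lay between -2.86 and -1.72 over the 15 lungs and between -3.04 and -1.47 over the 13 livers, with dose groups that overlapped vehicle throughout. In liver 0 of 5 genes were called, where 0%, 0.0427% and 0.0525% of all probes were called at D1 to D3 and 0% in the trend. Cyp1a1, by contrast, went from log2 ratios of 2.09 to 3.29 in vehicle lungs to 9.29 to 9.73 at D3.

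A single lung stood apart. The D2 lung of mouse 12 had log2 ratios of 6.0 for Lor, 3.33 for Tgm1, 2.95 for the Tgm3 probe A_51_P495560, 2.83 for Rptn, 2.44 for Sprr3 and 1.34 for Sprr1b. The other 14 lungs had 0.59 to 1.98 for Lor, 0.49 to 1.17 for Tgm1, at most 0.36 for that Tgm3 probe, at most 0.58 for Rptn, at most 0.24 for Sprr3 and at most -0.22 for Sprr1b. The other Tgm3 probe, A_55_P2163493, was lowest in this lung, at 0.44 against 0.55 to 0.94 in the others. Sprr2i and Ivl were not above background in it. Its score over 7 squamous keratins was 2.78, against -0.24 to 0.28 in the others, its score over 5 skeletal muscle genes was 5.58, against -0.27 to 0.37, and its score over 6 lung epithelial genes was -0.79, against -0.46 to 0.31. Its glandular score, 0.08, lay among the others. The median D2 difference of the lung envelope genes was 0.43 with this array and 0.06 without it. The part of squamous or muscle tissue in this array was not tested.

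In liver, mouse 12 at D2 had the highest Tgm1 log2 ratio, 3.81 against 0.93 to 2.30 in the other 12, and the highest Sprr1a, -1.47 against -3.04 to -2.38. Its squamous keratin score was -0.03. The median D2 difference of the liver envelope genes was 0.32 with it and -0.05 without it, so that value rests on this array.

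The effect of the high dose was compared between tissues for the genes measured in all of them, and none was called. The forestomach effect minus the lung effect was -0.22 ± 0.41 (SE) for Sprr1a, -0.51 ± 0.84 for Lor, -0.63 ± 0.70 for Tgm1 and 0.04 ± 0.20 for the Tgm3 probe A_55_P2163493, where 0.0106% of all probes were called. Against liver it was -0.18 ± 0.41 for Sprr1a, -0.79 ± 0.84 for Lor, -0.90 ± 0.70 for Tgm1 and 0.25 ± 0.20 for the same Tgm3 probe, where 0.00531% were called. For Sprr2i, not well above background on any lung or liver array, and for Sprr1b, Sprr3, Rptn, Ivl and the Tgm3 probe A_51_P495560, at or near background in 1 or both of these tissues, no such comparison can be made.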

How the data were processed

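RNA was measured on 42 2-colour Agilent mouse arrays from 15 mice. The authors deposited scanner files with linear median intensity values for Cy5 and Cy3 and log10 ratios made by Feature Extraction (per the file headers, version 10.7.3.1 for lung and forestomach, 11.0.1.1 for liver). They also deposited a table of log2 ratios normalised by LOWESS without background subtraction. Median signals were read without background subtraction and normalised by loess within each array (limma 3.58.1, R 4.3.3), leaving out control and outlier spots, and spots of a probe were averaged (55681 probes). RefSeq accessions named 26413 probes (47.4%). Probes were kept in a tissue if flagged well above background in Cy5 on 3 or more arrays (2 in liver), which left 32697, 25305 and 30460 probes in lung, forestomach and liver. Detected probes per array ran from 15633 to 33382. Groups held 2 to 4 arrays, and this small number limits the precision.

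All dose groups of a tissue were fitted together, and tissues were compared in 1 fit of all 42 arrays. Calls needed a Benjamini-Hochberg p, over all probes kept, no higher than 0.05 and a 1.5-fold difference, or the p alone for the linear dose trend. The study's methods used a shrunken F test with shuffled residuals, which was not run here. For a gene with several probes the main probe was the one with the highest mean intensity over both channels. The text names the members, the gene of each other list with the largest D3 difference where its list is described, the marker and response genes, and the 5 genes most like the members. A list's score is the mean of its genes, each centred on the median array. The member genes and lists were chosen with earlier results of these data known. The sample-channel fit, the sample-channel choice of probe and the fit without slide 1 were added after seeing the data. The sample-channel fit and bounds used the tissue signal after loess and a quantile normalisation of average intensities between arrays. The fit was tested on simulated data. Normexp was run on median signals with an offset of 50, since the mean signals planned for it were not in the files used here. Mouse numbers link tissues of the same animal, so the mouse was used as a replicate block between tissues. Dose groups within a tissue hold different mice.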

Additional observations from a re-analysis of the deposited data

Results flagged for a closer look

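Dixon's test at the 95% level was run on the 40 sets of 4 arrays given by an envelope gene, a tissue and a dose, and 3 were flagged, where chance flags about 1 in 20. Lor in the D2 forestomach of mouse 12 had a log2 ratio of 5.48, below 6.86 to 7.04 in the other 3. Tgm1 in the vehicle lung of mouse 3 was 0.87, above 0.49 to 0.54 in the other 3. Tgm1 in the D2 lung of mouse 12 was 3.33, above 0.71 to 1.15 in the other 3.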

How the results depend on the processing

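Over settings that kept all arrays or left out slide 1, 381 of 405 values of single envelope genes kept their direction and side of the threshold and 21 reversed. In forestomach the scanner software's log ratios gave a D2 median difference of -0.34, and the sample channel alone gave -1.48 at D1 and -1.81 at D2. The 2 groups alone gave 333 probes called at D1, with 1 envelope gene (Sprr2i), and the high-score arrays alone gave 31 at D1, with 1 envelope gene (Sprr1b), 1 at D2 and 1 at D3. Reversed differences were as follows, and the cause was not tested. Rptn at D3 was -0.061 with normexp, -0.15 with the glandular score, -0.18 with the glandular cluster, -0.37 on high-score arrays and -0.44 on the sample channel. With the scanner's ratios Rptn was 0.30 at D1 and 0.36 at D2 and Ivl 0.68 at D2. With slide as a block Ivl was 0.072 at D2, and Sprr2i, Sprr3 and Tgm1 were 0.34, 0.080 and 0.064 at D3. With slide and glandular score together Ivl was 0.21 at D1 and 0.36 at D2, Tgm3 -0.0065 at D1, Sprr2i 0.34 and Sprr3 0.11 at D3. Ivl at D3 was -0.36 on high-score arrays, Tgm3 at D3 was -0.14 on the sample channel, and without slide 1 Ivl was 0.030 at D2 and Tgm1 0.046 at D3.

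In lung the scanner's ratios gave 1, 1 and 3 probes called at D1, D2 and D3 and 2 in the trend, slide as a block gave 11 at D2, 26 at D3 and 22 in the trend, and the sample channel gave 7 in the trend. In liver the scanner's ratios gave 9 at D3, the 2 groups alone gave 2, 4 and 46 at D1, D2 and D3, slide as a block gave 1 at D2 and 10 at D3, and the sample channel gave a D3 median of -0.22. For the high-dose effect in forestomach against lung, normexp gave 2 probes, the scanner's ratios 0 and the sample channel 2, and against liver normexp gave 4 and the sample channel 5. The authors' table was not used for liver, where its values did not follow those of the same arrays (correlation at most 0.0048), for a reason that was not tested.

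Leaving out each array in turn, probes called ran from 0 to 1 in forestomach at D1, from 0 to 1, 0 to 8 and 3 to 34 in lung at D1, D2 and D3 and from 1 to 27 in its trend. In liver they ran from 0 to 5, 0 to 159 and 2 to 46, and from 0 to 10 in the trend, and the D2 median from -0.052 (without mouse 12) to 0.60. For the high-dose effect they ran from 0 to 8 against lung and from 2 to 5 against liver. Between vehicle forestomach and liver, probes called ran from 12127 to 12516 of 37646, and envelope genes called from 8 to 9, including those that entered the test through forestomach. Tgm3, called lower in forestomach, was lost without liver D0 mouse 1 or forestomach D0 mouse 2, and also on the sample channel (-0.27). Sprr2i at D3 ran from -0.83 to -0.065 (without mouse 17). Ivl at D2 ran from -0.34 to 0.030, Ivl at D3 from -0.16 to 0.67, Rptn at D3 from -0.32 to 0.32, Tgm1 at D3 from -0.63 to 0.046 and Tgm3 at D3 from -0.0074 to 0.11.

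With mouse as a replicate block, pairing tissues of the same animal, 11337 of 37646 probes differed between vehicle forestomach and lung and 12492 between forestomach and liver. Of the envelope genes 8 and 9 were called, as without the block. They include Sprr1b, Sprr2i, Sprr3, Rptn and Ivl, whose calls are no support for the group, and against liver Tgm3, which was lower in forestomach. The high-dose effect gave 5 and 2 probes. The block changed no other call on these genes. No pairing was possible within a tissue, since dose groups hold different mice.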
